A study of Mus musculus with 12 samples.

Results

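The genes described here are those of TGF-beta and BMP signaling in the mouse retina. They were taken by name, as every protein-coding gene whose symbol starts with Tgfb, Bmp, Gdf, Inhb, Acvr or Smad and that had at least 10 counts in at least 3 of the 12 libraries. Of 54 genes with such symbols, 47 met the minimum, out of 18943 genes that met it among 54146 genes counted. They comprised 20 ligands, 13 receptors, 8 SMADs and 6 genes that carry such a symbol without being a ligand, receptor or SMAD. All 47 entered the test, and 46 of them had at least 10 counts in each of the 12 libraries, whereas Bmp8b had so in 5.

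RNA from whole retinas was sequenced from 12 mice of 129/SV background, 1 library per mouse and 3 mice per condition. Mice of the P32, P34 and P38 conditions (cKO, numbered 4 to 6, 7 to 9 and 10 to 12) carried Crx-CreERT2, a tamoxifen-inducible Cre driven by the promoter of the photoreceptor gene Crx, together with Otx2 flox/flox, and were killed 2, 4 and 8 d after a single intraperitoneal dose of tamoxifen given at P30. The P30 mice (1 to 3) are labelled control and were killed at 0 d. The labels give no further genotype for them, the whole retina also holds cells outside the reach of this Cre, and age, tamoxifen and deletion changed together between P30 and the cKO groups.

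Libraries held 29701483 to 60145034 counts on genes. Otx2, counted over all its exons, was at 293 to 328 CPM (counts relative to the TMM-scaled library total) at P30 and at 307 to 377 CPM in the 9 cKO mice, a count in which the deleted exon is not set apart. Photoreceptor markers (8 of 8 detected) summed to 57566 to 106284 CPM. RNA of neighbouring tissue was present too. Lens markers (8 genes, Cryaa among them) summed to 280 to 45771 CPM, and smooth muscle markers (7 genes) reached 181.5 and 198.5 CPM in P30 mice 2 and 3 against 9.3 to 48.7 CPM in the other 10 mice. Judged by Xist, all 3 P30 mice were female, as were 2 of 3 mice at P32, 1 at P34 and 1 at P38.

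As background, TGF-beta family ligands are secreted dimers that bring type I and type II receptor kinases together. Type I receptors then phosphorylate receptor SMADs, Smad2 and Smad3 downstream of TGF-betas and activins and Smad1, Smad5 and Smad9 downstream of BMPs, which enter the nucleus with Smad4, while Smad6 and Smad7 restrain the pathway. In the eye, BMPs take part in the formation of the lens, the dorsal retina and the ciliary body, and TGF-beta 2 is known as the prevailing TGF-beta of the aqueous humor.

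Levels of the 47 genes were compared per exonic length, as RPKM averaged over the 12 mice. Receptors and SMADs stood above most ligands, with a median of 3.60 RPKM over the 13 receptors and 4.17 RPKM over the 8 SMADs against 1.11 RPKM over the 20 ligands. Of the ligands, 8 were under 0.5 RPKM and 4 were at or above 5 RPKM. The highest was Tgfb2 (15.6 ± 1.65 RPKM, SD over 12 mice, 13.4 to 18.6), followed by Tgfb3 (8.92 ± 1.3, 6.96 to 11.7), Bmp7 (5.23 ± 1.15, 3.59 to 7.07) and Gdf11 (5.17 ± 0.459), a ligand known to limit the number of ganglion cells in the developing retina. Bmp7 and Gdf11 did not differ beyond their spread.

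Among receptors, the activin type I receptor Acvr1b (22.9 ± 3.14 RPKM, 14.3 to 25.8) and the BMP type I receptor Bmpr1a (22.7 ± 3.51 RPKM, 15.6 to 28.0) shared the top within their spread. The activin type II receptor Acvr2a (11.2 ± 1.44 RPKM, 7.28 to 12.8) and the BMP type II receptor Bmpr2 (9.67 ± 1.42 RPKM) followed, also within each other's spread. Tgfbr1 reached 7.59 ± 0.681 RPKM, whereas its partner Tgfbr2, without which TGF-beta does not signal, was at 0.595 ± 0.126 RPKM, and Acvr1c was lowest at 0.0382 RPKM. The SMADs were led by the common Smad4 (15.1 ± 1.7 RPKM, 11.6 to 17.9), then Smad5 (12.6 ± 1.08, 10.6 to 14.5) and Smad3 (7.16 ± 0.715, 5.83 to 8.30), and the inhibitory Smad6 came last (0.382 ± 0.158 RPKM).

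**Figure D1:**
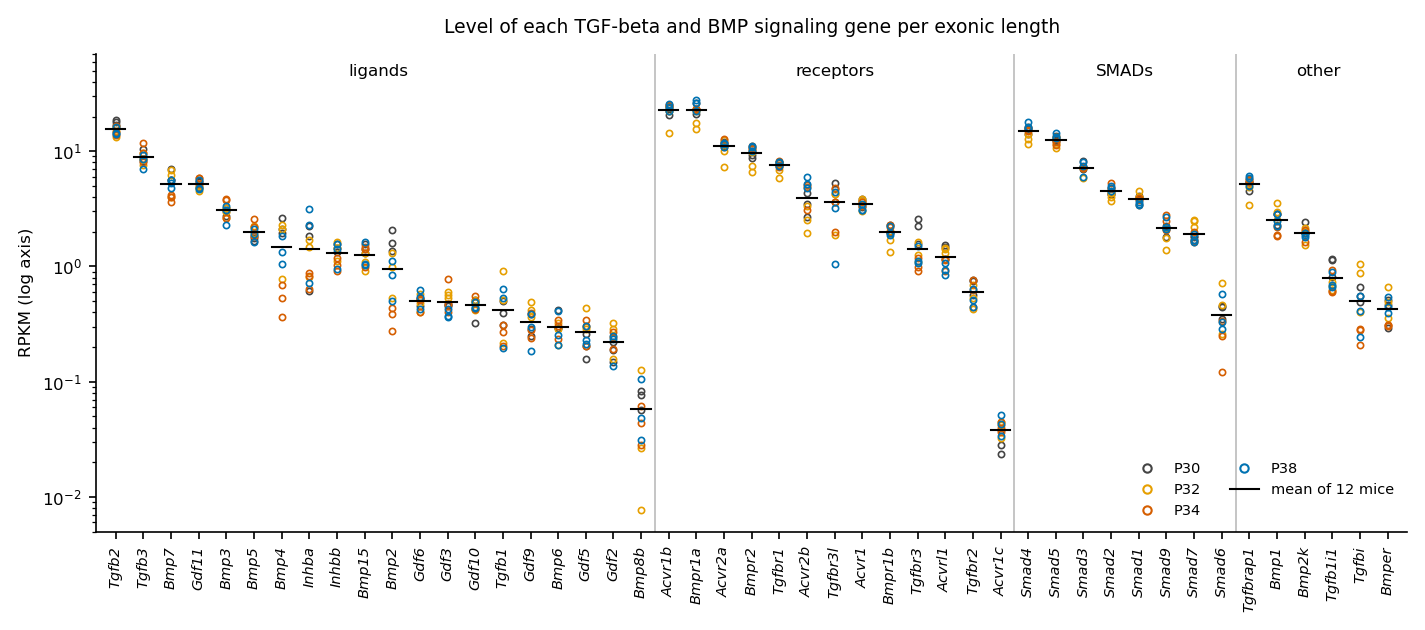
RPKM of the 47 genes in each of the 12 mice (circles, colored by condition) on a log axis, by role and ordered by their mean over 12 mice (black line). Acvr1b and Bmpr1a lay highest, Acvr1c and Bmp8b lowest, and Bmp2, Bmp4, Inhba, Tgfb1 and Smad6 spread more widely between mice than their neighbours.

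The spread between mice of the same condition differed widely by gene. Tgfb2 varied at most 1.21-fold and Smad2 at most 1.16-fold within any condition, whereas Inhba, which encodes the subunit of activin A, varied up to 4.42-fold and Tgfb1 up to 4.23-fold. Bmp8b, of the 47 genes the one with the fewest counts, ran from 1 to 20 counts at P32. Tgfbr3l, a receptor-like gene related to Tgfbr3, varied up to 4.24-fold. Of its 2930 exonic bases, 1530 are shared with the overlapping gene Gm49320, which had no counts. In union mode, reads on shared bases count for neither gene. The RPKM of Tgfbr3l, which is the receptor median of 3.60, can therefore be too low.

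Each cKO age was first compared with P30, and a gene was called where its adjusted p did not exceed 0.05 and its log2 fold change was 0.5 or more in either direction (edgeR's quasi-likelihood test, Benjamini-Hochberg adjustment over 18628 genes). At P34, 4 d after tamoxifen, 2 of the 47 genes were called, both BMP ligands and both lower: Bmp2 and Bmp4. Over all genes tested, 0.66% were called lower at P34 and 0% higher. None of the 13 receptors, 8 SMADs or 6 other genes were called by edgeR's test, and DESeq2 added only the receptor gene Tgfbr3 (1.98% of all genes called by DESeq2). At an unadjusted p of at most 0.05 with the same limit on the fold, 6 of the 47 genes passed at P34, all lower (Bmp2, Bmp4, Bmp7, Tgfb1i1, Tgfbi and Tgfbr3), against 5.42% of all genes lower and 0.854% higher.

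Bmp2 (ENSMUSG00000027358, GRCm38 chr2:133552159-133562885, plus strand), a BMP ligand that signals through Bmpr1a and Bmpr1b, was at 4.84, 5.73 and 7.34 CPM in P30 mice 1, 2 and 3. At P32 it had 4.62, 3.49 and 1.90 CPM, at P34 1.55, 1.37 and 0.98 CPM and at P38 4.00, 3.03 and 1.80 CPM. All 9 cKO mice lay below the P30 mice, and the P34 mice lay below all other mice. The log2 fold change was -0.84 ± 0.35 (SE) at P32 (adjusted p = 0.698, edgeR's quasi-likelihood test), -2.19 ± 0.37 at P34 (adjusted p = 0.0184) and -1.01 ± 0.35 at P38 (adjusted p = 0.847), of which only that at P34 was called.

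Bmp4 (ENSMUSG00000021835, GRCm38 chr14:46383520-46390669, minus strand), a close relative of Bmp2 that is required for lens induction, was at 4.73, 5.92 and 4.43 CPM at P30. The mice at P32 had 4.77, 5.17 and 1.75 CPM, those at P34 1.55, 1.20 and 0.81 CPM and those at P38 2.98, 4.13 and 2.38 CPM. The P34 mice were again the lowest, P32 mice 4 and 5 lay within the P30 range, and P32 mouse 6 lay near the P34 mice. At P34 the log2 fold change was -2.07 ± 0.39 (adjusted p = 0.0351, edgeR's quasi-likelihood test), and at P32 and P38 it was -0.37 ± 0.37 (adjusted p = 0.738) and -0.66 ± 0.37 (adjusted p = 0.847).

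Both calls rest on few counts, 29 to 56 per mouse at P34 for Bmp2 and 24 to 56 for Bmp4. They were lost with fewer mice: of the 12 fits that each left out 1 mouse, Bmp2 kept its call in 7 and Bmp4 in 5, with log2 fold changes between -2.34 and -2.03 for Bmp2 and between -2.31 and -1.89 for Bmp4. Bmp2 lost it without P30 mouse 2 or 3 or any of the P34 mice, and Bmp4 lost it without any P30 or P34 mouse or without P38 mouse 10. Without P30 mouse 1, which held little smooth muscle RNA compared with P30 mice 2 and 3, Bmp2 was at -2.32 (adjusted p = 0.0221) and Bmp4 at -2.12 (adjusted p = 0.0608).

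The sequence upstream of Bmp4 is shown because Bmp4 is, of the 2 genes called, the one with an entry in the RefSeq promoter table (build GRCm38.p6, chr14:46390670-46390919, minus strand). These 250 bases end at the base before the annotated start, and capitals mark the letters CACGTG, an E-box.
Bmp4: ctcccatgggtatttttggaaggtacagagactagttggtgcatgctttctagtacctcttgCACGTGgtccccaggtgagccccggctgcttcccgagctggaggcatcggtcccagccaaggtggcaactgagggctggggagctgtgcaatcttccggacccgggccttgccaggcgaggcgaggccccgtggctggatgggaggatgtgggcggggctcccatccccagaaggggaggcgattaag
The letters CACGTG occurred in 6.02% of 32851 promoters of the same length and in 4 of the 39 promoters listed for 32 of the 47 genes (Acvr1b, Bmp4, Bmp6 and Tgfb2). TAATCC, the core bound by OTX2 and CRX, occurred on either strand in 6.25% of all promoters and, among these genes, only in that of Tgfb2. GGCGCC, a SMAD element of BMP targets, was found in 8 of the 39 and in 9.59% of all promoters, and the SMAD palindrome GTCTAGAC in 0 of the 39 and in 0.167% of all.

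Bmp7, which like Bmp4 is required for eye formation, had 22.5, 22.6 and 28.4 CPM at P30, 24.8, 27.8 and 16.0 CPM in the P32 mice, 16.9, 14.4 and 16.1 CPM in the P34 mice and 21.2, 22.5 and 19.2 CPM in the P38 mice. As for Bmp4, P32 mouse 6 stood with the P34 mice, and P34 did not overlap P30. The log2 fold change at P34 was -0.63 ± 0.18 (adjusted p = 0.229, edgeR's quasi-likelihood test) and was not called. Of the fits that left out 1 mouse, it was called in that without P32 mouse 6 (adjusted p = 0.0362, 1.12% of all genes called).

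Tgfb2, the highest ligand per length, had 97.7, 103 and 108 CPM at P30 and 77.6 to 95.7 CPM in the 9 cKO mice, which thus all lay below P30. Over the 9 cKO mice the log2 fold change was -0.25 ± 0.08 (unadjusted p = 0.00678, adjusted p = 1, edgeR's quasi-likelihood test), under the limit on the fold. Tgfb3 differed from P30 by -0.15 to 0.11 on the log2 scale at the 3 ages and Gdf11 by -0.14 to 0.10.

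**Figure D2:**
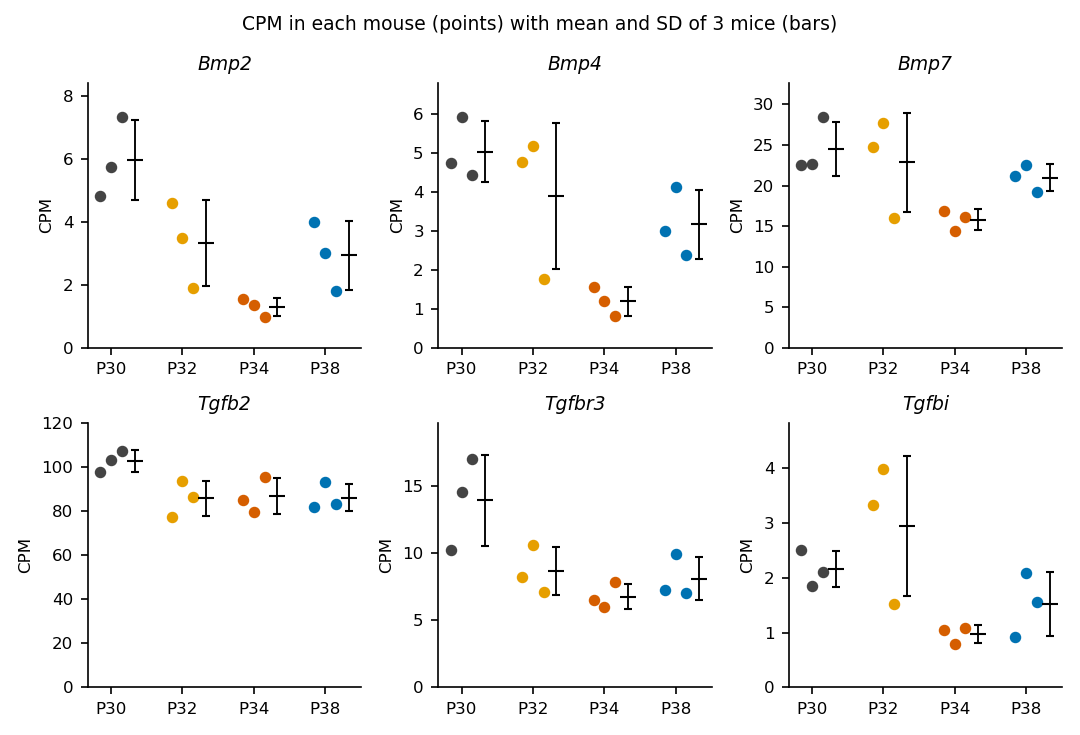
CPM of 4 ligands (Bmp2, Bmp4, Bmp7, Tgfb2), the co-receptor gene Tgfbr3 and Tgfbi in each mouse by condition, with the mean and SD of 3 mice beside the points. Bmp2, Bmp4, Bmp7 and Tgfbi were lowest on average at P34, with P38 between P34 and P30, while Tgfb2 had means of 85.9, 87.0 and 86.3 CPM in the 3 cKO conditions.

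Tgfbr3 encodes betaglycan, the co-receptor that presents TGF-beta 2 to the signaling receptors, and was the receptor gene with the largest decrease in fitted log2 fold change at each cKO age. It had 10.3, 14.6 and 17.0 CPM at P30, 8.25, 10.6 and 7.10 CPM in the P32 mice, 6.49, 5.98 and 7.82 CPM in the P34 mice and 7.28, 9.95 and 7.06 CPM in the P38 mice. P30 mice 2 and 3 lay above all cKO mice, while P30 mouse 1 lay below P32 mouse 5. The log2 fold change was -1.04 ± 0.22 at P34 (adjusted p = 0.0686, edgeR's quasi-likelihood test) and -0.83 ± 0.18 over the 9 cKO mice (unadjusted p = 0.000451, adjusted p = 0.233), neither of them called. Without P30 mouse 1 edgeR's test called it at P34, at -1.22 (adjusted p = 0.0245). The same test called it without P32 mouse 6 (adjusted p = 0.0457, 1.12% of all genes called) and without a filter on low counts (adjusted p = 0.0126). DESeq2 called it too (adjusted p = 0.00108, 1.98% of all genes). With the smooth muscle markers' score as a covariate the log2 fold change at P34 was -0.32 (adjusted p = 1), and with the ciliary body score it was -0.22 (adjusted p = 0.897). Both scores were lower in every P34 mouse than in every P30 mouse, so these fits cannot separate score and condition.

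Acvrl1 and Acvr2b were not called in any comparison by edgeR's test on all 12 mice with its own filter and no covariate. DESeq2 called both from P32 to P38. Acvrl1, the ALK1 receptor of endothelial cells, had 4.92, 6.60 and 6.27 CPM at P30, 6.06, 6.15 and 5.55 CPM in the P32 mice, 4.94, 3.92 and 4.81 CPM in the P34 mice and 4.00, 3.61 and 4.58 CPM in the P38 mice. From P30 to P38 it had a log2 fold change of -0.54 ± 0.17 (adjusted p = 0.847, edgeR's quasi-likelihood test), with the P38 mice below the P30 mice. Acvr2b, an activin type II receptor, had 7.68, 9.98 and 13.2 CPM at P32 and 18.8, 23.3 and 20.4 CPM at P38, which did not overlap and differed by 1.02 ± 0.24 on the log2 scale (adjusted p = 0.114). EdgeR's test called Acvr2b from P32 to P38 without P32 mouse 6 (1.24, adjusted p = 0.0232) and without a filter on low counts (adjusted p = 0.039). The shares of all genes called in these fits from P32 to P38 are not given here. At P30 Acvr2b had 10.5, 13.8 and 17.1 CPM and at P34 12.1, 19.1 and 20.1 CPM, with wide overlap between them.

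The BMP receptor genes Bmpr1a and Bmpr2 shared 1 feature, low values in P32 mice 4 and 5. Bmpr1a had 98.8, 112 and 141 CPM at P32 against 168, 141 and 178 CPM at P38 (log2 fold change 0.47 ± 0.14, adjusted p = 0.118, edgeR's quasi-likelihood test), and P30 and P34 spanned 134 to 167 CPM. Bmpr2 had 119, 135 and 179 CPM at P32 and 188 to 199 CPM at P34 (log2 fold change 0.42 ± 0.13, adjusted p = 0.101), against 156 to 179 CPM at P30 and 181 to 199.5 CPM at P38. P32 mouse 6 lay with the mice of the other conditions for both genes. Without it edgeR's test called Bmpr1a from P32 to P38 (0.62, adjusted p = 0.0232) and Bmpr2 from P32 to P34 (0.60, adjusted p = 0.0131) and to P38 (0.60, adjusted p = 0.0223). Leaving out this mouse raised the share of all genes called from P32 to P34 from 0.242% to 14.3%. The share called from P32 to P38 without it is not given here. The other receptor genes at or above 5 RPKM, Acvr1b, Acvr2a and Tgfbr1, differed from P30 by -0.22 to 0.17 on the log2 scale.

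No SMAD was called by edgeR's or DESeq2's test at P34, where log2 fold changes from P30 ran from -0.83 (Smad6, adjusted p = 0.541, edgeR's quasi-likelihood test) to 0.25, with a median of -0.04 beside -0.00 over all genes. Smad2, which relays TGF-beta and activin signals, had 35.3, 32.8 and 37.9 CPM at P32 and 42.2, 42.5 and 46.2 CPM at P34, a difference of 0.31 ± 0.09 on the log2 scale (adjusted p = 0.0962). In the other mice Smad2 had 37.1, 37.3 and 39.1 CPM at P30 and 43.9, 39.5 and 42.1 CPM at P38. Smad4 had 42.9, 47.7 and 52.1 CPM at P32 and 66.3, 59.6 and 59.8 CPM at P38 (log2 fold change 0.38 ± 0.10, adjusted p = 0.114), and 52.2 to 60.0 CPM at P30 and P34. Both differences were without overlap between the 2 conditions and below the limit on the fold.

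Smad7, the inhibitory SMAD induced by the pathway itself, was highest at P32. It had 8.33, 7.71 and 8.11 CPM at P30 and 11.3, 11.3 and 9.98 CPM in the P32 mice, then 7.46, 7.40 and 9.04 CPM in the P34 mice and 8.59, 7.67 and 7.40 CPM in the P38 mice. The 3 P32 mice lay above the other 9, with a log2 fold change from P30 of 0.43 ± 0.13 (unadjusted p = 0.00576, adjusted p = 0.698, edgeR's quasi-likelihood test). Smad5 and Smad3 differed from P30 by -0.15 to 0.10 on the log2 scale at the 3 ages.

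Of the 6 genes that are no ligand, receptor or SMAD, 3 had an unadjusted p of at most 0.01 in any comparison. Tgfbi, a matrix protein induced by TGF-beta, had 2.51, 1.86 and 2.11 CPM at P30, 3.33, 3.98 and 1.53 CPM in the P32 mice, 1.05, 0.78 and 1.08 CPM in the P34 mice and 0.92, 2.09 and 1.56 CPM in the P38 mice. P34 lay below P30 and P32 throughout, by -1.15 ± 0.37 from P30 (adjusted p = 0.293, edgeR's quasi-likelihood test) and -1.60 ± 0.38 from P32 (adjusted p = 0.0948) on the log2 scale. Bmp1, a protease that trims procollagens rather than a BMP, had 26.2, 31.4 and 22.5 CPM at P32 and 16.5, 19.4 and 16.5 CPM at P34 (log2 fold change -0.61 ± 0.15, adjusted p = 0.0948), against 20.4 to 25.3 CPM at P30 and 20.0 to 25.2 CPM at P38. Its P34 values were below those of all other conditions. From P32 to P34, edgeR's test called Tgfbi and Bmp1 without P32 mouse 6 (adjusted p = 0.0131 and 0.0152), a fit that called 14.3% of all genes. EdgeR's test also called both without a filter on low counts (adjusted p = 0.0242 and 0.0405), as did DESeq2 (adjusted p = 0.00431 and 0.00698, 8.65% of all genes).

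Tgfb1i1, the focal adhesion protein Hic-5 of smooth muscle, had 4.51, 6.36 and 6.42 CPM at P30 and 3.33 to 5.25 CPM in the 9 cKO mice (log2 fold change -0.53 ± 0.17, adjusted p = 1, edgeR's quasi-likelihood test). P30 mouse 1 lay within the cKO range. P30 mice 2 and 3, which were higher, were also those with the most RNA of smooth muscle markers (181.5 and 198.5 CPM against 29.5 CPM in P30 mouse 1). With the mean log2 CPM of the smooth muscle markers as a covariate, the log2 fold change of Tgfb1i1 was -0.11 (adjusted p = 1). This score was 4.48 and 4.25 in P30 mice 2 and 3 and at most 2.12 in the cKO mice. It thus moves with the condition, and this fit cannot separate them. The part of smooth muscle RNA in the difference was not tested.

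**Figure D3:**
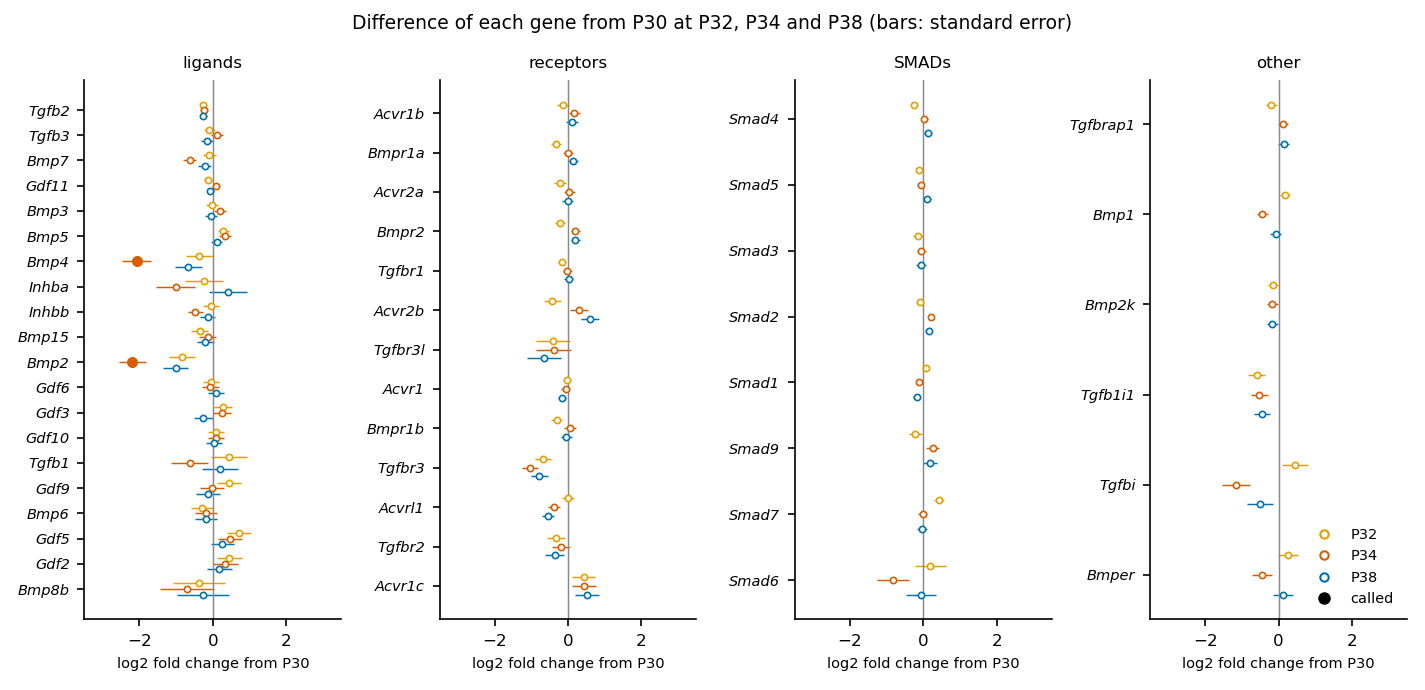
Fitted log2 fold change from P30 of each of the 47 genes at P32, P34 and P38, by role, with its standard error (bars) and filled points for genes called. The filled points are Bmp2 and Bmp4 at P34, at -2.19 and -2.07, and most other points lie within 1 of zero.

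For the 47 genes together, the median log2 fold change at P34 stood at -0.06, with 29 of 47 negative, beside -0.00 over all genes tested, of which 50.2% were negative. It was -0.10 for ligands, -0.00 for receptors and -0.45 for the 6 other genes. Values at P34 lay wholly below P30 for 9 of the 47 genes (9.67% of all genes), among them Inhbb and Smad6 besides genes given above, and wholly above P30 for 3, Acvr1b, Bmpr2 and Smad2 (10.4% of all genes). At P32, 12 of the 13 receptors had a negative log2 fold change, with a median of -0.22, beside 51.5% of all genes and a median of -0.0088. P32 mouse 6 differed from the other P32 mice, with Acvr1b (107.5 CPM), Acvr2a (70.7 CPM) and Tgfbr1 (53.0 CPM) above the P30 mice.

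At P32, edgeR's quasi-likelihood test called 0 of the 47 genes (0% of all genes), as did DESeq2 (0.134% of all genes), and 4 passed an unadjusted p of at most 0.05 with the limit on the fold (2.9% of all genes), with Bmp2, Tgfb1i1 and Tgfbr3 lower and Gdf5 higher. At P38, edgeR (0% of all genes) and DESeq2 (0.242% of all genes) again called 0, and 4 passed unadjusted (3.46% of all genes), namely Acvrl1, Bmp2 and Tgfbr3 lower and Acvr2b higher. Over the 9 cKO mice as 1 group, edgeR called 0 (0.0537% of all genes) and DESeq2 called Tgfbr3 (0.248% of all genes), and 3 passed unadjusted (1.88% of all genes), Bmp2, Tgfb1i1 and Tgfbr3. The 3 ages share the P30 mice, so these comparisons are not independent of each other.

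The ages after tamoxifen were compared with each other as well. From P32 to P34 edgeR called 0 of the 47 genes (0.242% of all genes), DESeq2 called 6 (8.65% of all genes), and 8 passed unadjusted (14.4% of all genes). From P34 to P38 edgeR called 0 (0.199% of all genes) and DESeq2 called Bmp4 (0.774% of all genes), and 3 passed unadjusted (3.81% of all genes), all higher at P38: Bmp2 by 1.18 ± 0.36 on the log2 scale (adjusted p = 0.546, edgeR's quasi-likelihood test), Bmp4 by 1.41 ± 0.39 (adjusted p = 0.44) and Inhba by 1.41 ± 0.53 (adjusted p = 0.792). From P32 to P38 edgeR called 0 (0% of all genes), DESeq2 called Acvr2b and Acvrl1 (6.05% of all genes), and 3 passed unadjusted (11.9% of all genes).

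A test over the 4 conditions at once called 0 of the 47 genes by edgeR (0.344% of all genes) and 10 by DESeq2 (7.65% of all genes), and 13 had an unadjusted p of at most 0.05 (17.2% of all genes). Of the fits that left out 1 mouse, the one without P32 mouse 6 gave the most calls in these comparisons. EdgeR's test then called 5 of the 47 genes over the 4 conditions (3.08% of all genes), 4 at P34 against P30 (1.12% of all genes), namely Bmp2, Bmp4, Bmp7 and Tgfbr3, and 12 at P34 against P32 (14.3% of all genes), namely Acvr2b, Bmp1, Bmp2, Bmp4, Bmp7, Bmper, Bmpr1b, Bmpr2, Smad7, Smad9, Tgfb1 and Tgfbi.

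The decrease of Bmp2 and Bmp4 at P34 was accompanied by that of ciliary body genes. Of the 5 ciliary body markers (Optc, Otx1, Msx1, Zic1 and Aqp1), 5 had a negative log2 fold change at P34 (50.2% of all genes) and 3 were called (0.66% of all genes lower), and none was at 0. Optc, the opticin that the ciliary epithelium secretes into the vitreous, had 99.0, 73.8 and 90.6 CPM at P30, 79.3, 113 and 37.7 CPM in the P32 mice, 4.06, 2.47 and 2.64 CPM in the P34 mice and 51.6, 72.6 and 34.7 CPM in the P38 mice. The sum of the 5 markers was 258 to 306 CPM at P30, 218 to 321 CPM in the P32 mice, 136 to 153 CPM in the P34 mice and 192 to 316 CPM in the P38 mice.

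P32 mouse 6 and P38 mouse 12, each the lowest of its condition for Optc, were also the lowest of their conditions for Bmp2, Bmp4 and Bmp7. The same held for further genes of the 47, among them Tgfbr3, Tgfb1i1, Tgfb1, Inhba, Inhbb, Smad6, Bmper, Bmp1 and Gdf2. It did not hold for Bmp3 and Bmp5, for which P38 mouse 12 was the highest of its condition (24.8 and 8.52 CPM). At P30, mouse 2 was lowest for Optc but highest for Bmp4, and not lowest for Bmp2 or Bmp7. At P34, mouse 8 was lowest for Optc and Bmp7, whereas mouse 9 was lowest for Bmp2 and Bmp4. With the mean log2 CPM of the ciliary body markers as a covariate, none of the 47 genes was called at P34 against P30 by edgeR's test. The log2 fold change at P34 then became -0.021 for Bmp2 (adjusted p = 0.993), 0.049 for Bmp4 (adjusted p = 0.986) and 0.42 for Bmp7 (adjusted p = 0.72). In bulk RNA, fewer cells of a type in the sample and less RNA per cell cannot be told apart. The marker score and the P34 condition move together, so this fit cannot separate them.

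RNA of other tissues differed between mice as well. The lens sum was 280 to 765 CPM at P34 against 532 to 45771 CPM in the other 9 mice, and the smooth muscle sum was 29.5 to 198.5 CPM at P30, 11.04 to 48.7 CPM in the P32 mice, 9.3 to 13.9 CPM in the P34 mice and 16.7 to 22.8 CPM in the P38 mice. Of the lens markers 8 of 8 had a negative log2 fold change at P34, 0 were called by edgeR's test and 8 passed unadjusted (5.42% of all genes lower), and of 5 smooth muscle markers tested 5 were negative and 4 were called (Acta2, Myh11, Myl9 and Tagln, beside 0.66% of all genes lower). With a lens score as covariate Bmp2 was at -1.75 (adjusted p = 0.117, edgeR's quasi-likelihood test) and Bmp4 at -1.86 (adjusted p = 0.199), and with a smooth muscle score they were at -1.46 and -1.44 (adjusted p = 1 for both). Except for the lens score in P30 mouse 2, both scores were lower in the P34 mice than in the P30 mice. These fits cannot separate score and condition.

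Markers of pigment cells, fibroblasts and surface epithelium differed too. Of 5 pigment cell markers, 5 had a negative log2 fold change at P34 and 2 were called (Mlana and Tyrp1, beside 0.66% of all genes lower), and none was at 0. Their sum was 115, 816 and 665 CPM in P30 mice 1, 2 and 3, 28.9 to 112 CPM in the P32 mice, 37.4 to 53.5 CPM in the P34 mice and 29.3 to 127 CPM in the P38 mice. P30 mice 2 and 3, which stood out here, were also the highest of the 12 mice for Tgfbr3 and Tgfb1i1. Of 6 fibroblast markers, 5 had a negative log2 fold change at P34 and 1 was called (Col1a2, beside the same share of all genes), and none was at 0, with sums of 64.2 to 94.9 CPM at P30, 38.4 to 72.5 CPM in the P32 mice, 26.5 to 49.4 CPM in the P34 mice and 50.1 to 88.8 CPM in the P38 mice. Of 4 cornea and conjunctiva epithelium markers tested, 4 were negative at P34 and 1 was called (Dsg1a), with sums over 5 markers of 2.79 to 8.47 CPM at P30 and 0.75 to 3.11 CPM at P34. Other lists did not differ in this way at P34. Of 6 RPE, 5 endothelium, 4 pericyte and 5 Mueller glia and astrocyte markers tested, edgeR's test called 0. None of these passed unadjusted either (0.66% of all genes called lower, 5.42% lower unadjusted). Their median log2 fold changes were -0.10, -0.04, -0.01 and 0.11. The part of pigment cell, fibroblast and epithelial RNA in the differences of the 47 genes was not tested.

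**Figure D4:**
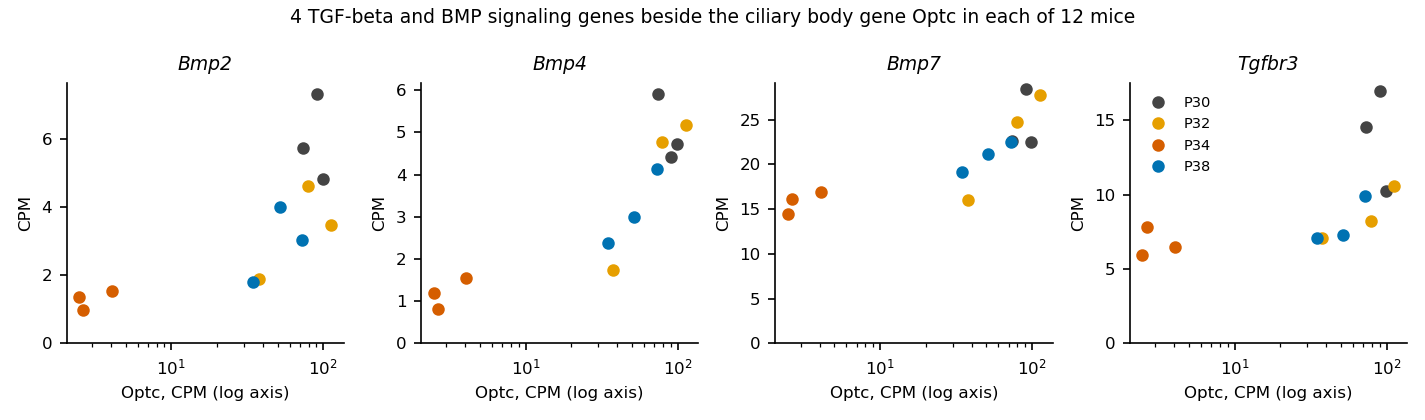
CPM of Bmp2, Bmp4, Bmp7 and Tgfbr3 against CPM of the ciliary body gene Optc (log axis) in each of 12 mice, colored by condition. The 3 P34 mice (Optc 2.47 to 4.06 CPM) stand apart at the left, and P32 mouse 6 and P38 mouse 12 (37.7 and 34.7 CPM) have the next lowest Optc with low Bmp2 and Bmp4.

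Genes around the pathway were read from 5 lists. Among 9 tested carriers and activators of latent TGF-beta, 2 were called at P34, Ltbp1 and Ltbp2, both lower (0.66% of all genes). Ltbp1, which tethers latent TGF-beta to the matrix, had 20.9, 23.4 and 27.3 CPM at P30, 17.3, 23.1 and 12.9 CPM in the P32 mice, 4.42, 5.32 and 6.13 CPM in the P34 mice and 14.0, 16.9 and 13.5 CPM in the P38 mice. Ltbp2, a microfibril protein of the ciliary zonule that despite its name does not bind latent TGF-beta, had 24.4, 22.5 and 29.9 CPM at P30, 16.9, 32.5 and 13.2 CPM in the P32 mice, 1.57, 1.18 and 1.46 CPM in the P34 mice and 17.5, 32.8 and 17.3 CPM in the P38 mice. P34 lay far below every other mouse for both genes.

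The log2 fold change at P34 was -2.17 ± 0.21 for Ltbp1 and -4.19 ± 0.38 for Ltbp2 (adjusted p = 0.000623 and 0.000443, edgeR's quasi-likelihood test). From P34 to P38 they were called higher, by 1.49 ± 0.21 and 4.01 ± 0.38 on the log2 scale (adjusted p = 0.0123 and 0.00114). Ltbp1 and Ltbp2 were thus lowest in the same 3 mice in which Optc was lowest, and the part of ciliary body RNA in their differences was not tested.

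Among the 13 response genes reported here edgeR's test called 0 at P34 (0.66% of all genes lower, 0% higher) and DESeq2 called 1, Id3 (1.98% of all genes), while 2 passed lower at an unadjusted p of at most 0.05 with the limit on the fold (5.42% of all genes), the direct BMP targets Id1 and Id3, which were named after their values were seen. Id1 had 3.91, 2.42 and 4.58 CPM at P30 and 1.77, 1.37 and 2.00 CPM at P34 (log2 fold change -1.09 ± 0.48, adjusted p = 0.464, edgeR's quasi-likelihood test), and Id3 had 19.2, 22.4 and 15.8 CPM at P30 and 8.92, 7.89 and 9.72 CPM at P34 (-1.12 ± 0.34, adjusted p = 0.27). Neither overlapped between P30 and P34. Over the 13 response genes the median log2 fold change at P34 was -0.22, with 9 negative.

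In the other lists edgeR's test called 0 of the 13 extracellular antagonists reported here, 0 of 7 further ligands and co-receptors and 0 of 15 intracellular regulators at P34, and DESeq2 called the antagonist genes Bambi and Nbl1 (1.98% of all genes). At an unadjusted p of at most 0.05 with the limit on the fold, 5 antagonists were lower (Bambi, Fstl1, Fstl3, Nbl1 and Sostdc1), as was 1 of the 15 intracellular regulators, the co-repressor gene Tgif1 (5.42% of all genes), and 1 of the 7 further ligands and co-receptors, Mstn, was higher (0.854% of all genes). The 13 antagonists had a median log2 fold change of -0.38 at P34, and the 18 genes of that list summed to 250.2 to 305 CPM at P30 and 175 to 192 CPM at P34.

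**Figure D5:**
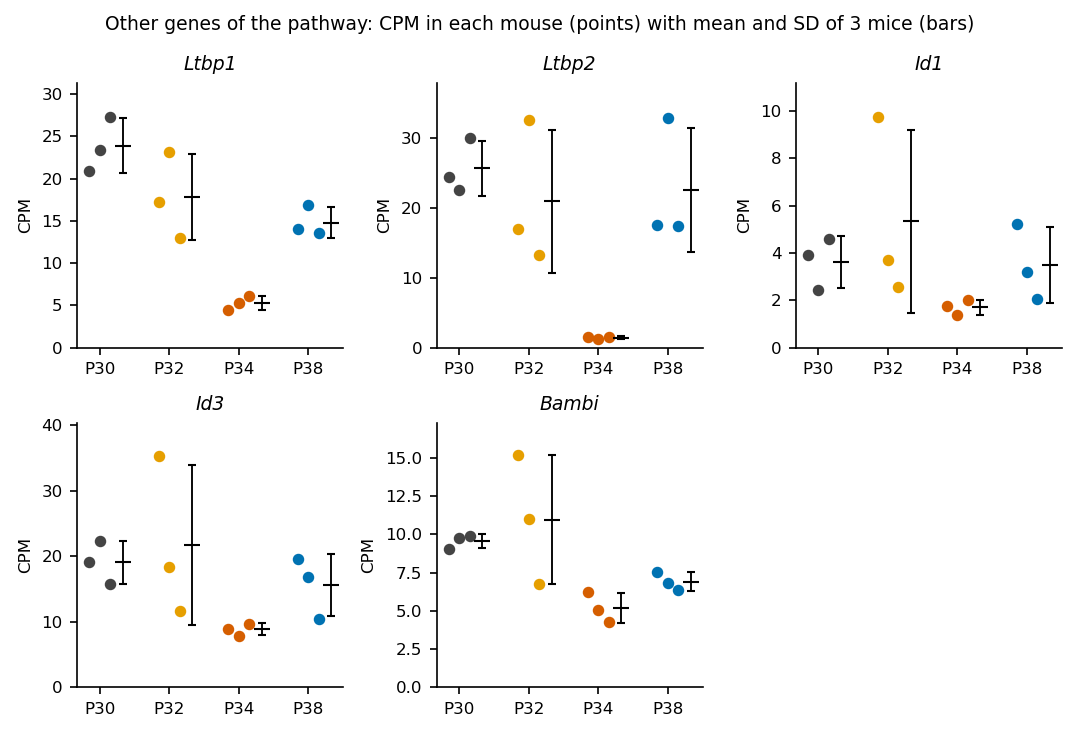
CPM of 5 other genes of the pathway in each mouse by condition, with the mean and SD of 3 mice beside the points. Ltbp1 and Ltbp2 were called at P34, whereas Id1, Id3 and the antagonist gene Bambi were not by edgeR's test and are shown because of their values.

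The 7 genes left out by the minimum of 10 counts in 3 libraries were Bmp10, Bmp8a, Gdf1, Gdf15, Gdf7, Inhbc and Inhbe. Gdf15, a stress-induced cytokine, had 64 counts over the 12 mice, at most 11 in 1 mouse, and Gdf1, Gdf7 and Inhbc had 0. Gdf1 could not be counted apart from Cers1, with which it shares all 1349 exonic bases on the same strand.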

How the data were processed

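Per the labels and the methods, the authors extracted total RNA from whole retinas, prepared stranded TruSeq mRNA libraries, sequenced 50 bp single reads, aligned with STAR 2.5.3a (mm10) and counted with HTSeq 0.6.1p1, union mode, on the genes of Ensembl release 93. The strand option used in counting is not given in the sources used here. The deposited counts are whole numbers per gene and mouse, without normalization, and reads with several positions were not counted. Of the genes counted, 54079 (99.9%) were named from GENCODE M21 (GRCm38).

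From these counts, CPM (TMM) and RPKM over the union of exons were computed with edgeR 4.0.16 in R 4.3.3. After edgeR's filter on low counts, a quasi-likelihood model with the 4 conditions was fitted to all 12 mice, and a standard error is the log2 fold change over the square root of its F. The 9 cKO mice were compared with P30 in a separate fit. DESeq2 1.42.0 was an alternative. The procedure was tested on simulated data. A depth of 29701483 to 60145034 counts puts 3 counts at 0.0473 to 0.102 CPM, a floor that covers counting error only.

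Values by mouse, or by the range within a condition, are given for genes that were called, had an unadjusted p of at most 0.01 in any comparison or were among the 3 highest by RPKM of the ligands, of the receptors or of the SMADs. Values of other genes were chosen after they were seen. The 47 genes and all lists were chosen with earlier results of these data known, which makes counts over them descriptions. Replicates are separate mice. The alternatives were other scalings, filters, fits and thresholds, sex and a ciliary body score as covariates, and leaving out each mouse. Lens and smooth muscle scores were added after seeing the data. Of the lists of other pathway genes, 2 genes are not reported here and entered no count, sum or median of their lists.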

Additional observations from a re-analysis of the deposited data

Results flagged for a closer look

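Each of the 47 genes was screened over the 9 cKO mice for a highest or lowest mouse whose gap to its neighbour exceeded Dixon's 95% limit for the share of the range, which chance passes in about 1 of 20 groups. This picked out 2 genes, both in P32 mouse 4. Acvr1b, the activin type I receptor, was at 63.1 CPM there, against 98.0 CPM in the next lowest mouse (gap 0.683 of the range). Tgfbrap1, which encodes a trafficking protein first found by its binding to TGF-beta receptors, was at 37.1 CPM there, against 53.3 CPM in the next lowest (gap 0.55 of the range). P32 mouse 4 also had the highest lens sum of the 12 mice, at 45771 CPM, and the highest share of reads without a unique position, at 32.2%, and their part in these values was not tested.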

How the results depend on the processing

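No paired analysis was possible because the replicate numbers 1 to 12 are unique and the conditions share none. The 2 calls at P34 against P30 were kept with DESeq2's size factors, both other filters, DESeq2's test, a robust fit, a fit of the 2 conditions alone and sex as a covariate. Tgfbr3 was called besides by DESeq2's test and without a filter on low counts. Calls at P34 against P30 fell to 0 with a ciliary body, lens or smooth muscle score as a covariate, and leaving out 1 mouse gave 0 to 4. With the ciliary body score, directions reversed for Bmp2 at P34 against P32 (0.57) and P38 against P34 (-0.76), for Bmp4 at P34 against P30 (0.049), P34 against P32 (0.25) and P38 against P34 (-0.45), and at P34 against P30 for Bmp7 (0.42) and Tgfbi (0.22). The score is itself lowest at P34. At an unadjusted p the counts against P30 were 4 for P32, 6 for P34 and 4 for P38, 3 for the 9 cKO mice, 13 over the 4 conditions, 8 for P34 against P32, 3 for P38 against P34 and 3 for P38 against P32. With DESeq2's test they were 1 for the 9 cKO mice, 10 over the 4 conditions, 6 for P34 against P32, 1 for P38 against P34 and 2 for P38 against P32, and without a filter 3 over the 4 conditions, 4 for P34 against P32 and 1 for P38 against P32. Sex as a covariate gave 1 over the 4 conditions and 1 for P34 against P32. Leaving out 1 mouse gave 0 to 5 over the 4 conditions, 0 to 12 for P34 against P32 and 0 to 5 for P38 against P32. The cause of these shifts was not tested. Bmp2 and Bmp4 had 24 to 56 counts in the P34 mice, and the part of depth in their calls was not tested.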

Other observations

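Inhba, Tgfb1 and Tgfbr3l differed more between mice of 1 condition than between conditions. Inhba had 11.7, 3.88 and 14.4 CPM at P30, 9.39, 10.8 and 5.15 CPM in the P32 mice, 4.06, 5.56 and 5.25 CPM in the P34 mice and 20.2, 14.7 and 4.58 CPM in the P38 mice. In the same order of mice, the lens sum was 11376, 532 and 39457 CPM (P30), 45771, 33413 and 749 CPM (P32), 280, 765 and 569 CPM (P34) and 13674, 5320 and 5808 CPM (P38). P30 mouse 2, P32 mouse 6 and the 3 P34 mice, the 5 mice with the lowest lens sums (280 to 765 CPM), had 3.88 to 5.56 CPM of Inhba, and P38 mouse 12 had as little (4.58 CPM) with a lens sum of 5808 CPM. Tgfb1 had 2.51, 1.55 and 1.99 CPM at P30, 4.59, 2.58 and 1.08 CPM in the P32 mice, 1.35, 1.03 and 1.56 CPM in the P34 mice and 3.23, 2.70 and 0.98 CPM in the P38 mice. Among the cKO mice Tgfbr3l was lowest at 5.49 CPM in P32 mouse 4, 5.83 CPM in P34 mouse 7 and 3.08 CPM in P38 mouse 10, against 9.38 to 14.2 CPM in the other 6 cKO mice and 10.7 to 15.7 CPM at P30. The same 3 mice had the lowest shares of reads that fell on no gene, 6.53 to 8.67% against 9.95 to 13.7% in the other 9 mice, and the part of this in the values of Tgfbr3l was not tested.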
